A study of Mus musculus with 12 samples.

Results

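Revitalized mesenchymal stromal cells (rMSC) were set against freshly sorted Scf-GFP(+) bone marrow stroma, using the 6 RNA-seq libraries of these groups out of 12 in the series. The libraries were chosen by their sample labels alone, 3 for each group, and the test was fitted on these 6. All cells came from C57BL/6J mice. The rMSC group was cultured stroma that carried 5 transduced genes, Klf7, Ostf1, Xbp1, Irf3 and Irf7. Its starting cells were marrow stroma negative for CD45, Ter119 and CD31 and positive for Scf-GFP, a green fluorescent reporter of the stem cell factor gene. Culture medium was alpha-MEM with 20% fetal bovine serum and 10 ng/ml basic fibroblast growth factor. The Scf-GFP(+) group was sorted fresh from digested marrow with the same surface gates and carried no transduced gene. Stroma with a control vector and fresh Scf-GFP(-) cells, 3 libraries each, are given only as levels beside the comparison. The labels do not give the length of culture, the number of passages, the age or sex of the mice, or whether replicate libraries stand for different mice or dishes, so every p-value measures only the spread between these libraries.

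Stem cell factor (Kitl) and the chemokine Cxcl12 are the main signals by which perivascular stroma of the marrow keeps blood stem cells in place and alive. The cells that make them surround sinusoids, express the leptin receptor and adiponectin, and depend on the transcription factors Ebf1, Ebf3 and Foxc1. They lose much of this expression when plated in culture, and the comparison asks which of these genes stand at the level of fresh cells after transduction, which lie above it and which remain below.

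Counts per library totalled 60507051 to 85353566, and 14631 to 15461 genes had at least 1 count. Levels are counts scaled to library size (CPM) with TMM factors, and differences are log2 fold changes of rMSC over Scf-GFP(+) from edgeR's quasi-likelihood test, with the standard error and a Benjamini-Hochberg p adjusted over 14314 genes. A gene was called higher or lower at an adjusted p under 0.05. A gene not called was placed within 2-fold when its 95% interval lay inside -1 to 1 on the log2 scale, and was otherwise unresolved. Of the genes tested, 9848 (68.8%) were called, 4584 (32.0%) higher and 5264 (36.8%) lower in rMSC, and 2551 (17.8%) were within 2-fold. These shares are the background for every list below, and the median log2 fold change of all genes tested was -0.07. The groups did not overlap in 76.9% of all genes tested. The spread was uneven, with a biological coefficient of variation of 7.22% among rMSC libraries and 41.6% among Scf-GFP(+) libraries. The test fits 1 spread per gene for both groups and moderates it over genes. Standard errors and p-values therefore rest on a pooled spread that is not that of either group. Genes of red cell precursors, granulocytes and platelets, which the sort should remove, were present in the Scf-GFP(+) libraries, and their levels are given near the end.

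All 5 transduced genes were higher in rMSC. Irf3, an interferon regulatory factor activated by viral nucleic acid, stood at 452, 460.0 and 456 CPM in the rMSC libraries, against 36.8, 43.5 and 45.1 CPM in the Scf-GFP(+) libraries (log2 fold change 3.45 ± 0.11, adjusted p = 3.77e-06). Irf7, its interferon-induced relative, stood at 252, 236 and 223 CPM in rMSC and 38.8, 42.4 and 45.6 CPM in Scf-GFP(+) (2.49 ± 0.10). Klf7, a Krüppel-like factor, was at 70.8 ± 1.76 CPM in rMSC and 11.6 ± 1.96 CPM in Scf-GFP(+) (mean ± SD, n = 3 each), a difference of 2.61 ± 0.14. Ostf1, an adaptor protein first named for osteoclast stimulation, differed by 1.53 ± 0.07. Xbp1, the transcription factor of the unfolded protein response, differed least, with 480.2, 489 and 482 CPM in rMSC and 234, 266 and 319.6 CPM in Scf-GFP(+) (0.83 ± 0.12, adjusted p = 0.00105). No library of either group crossed into the range of the other for any of these genes. Counts per gene do not separate vector transcripts from those of the mouse's own gene.

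Niche factors split into a few that reached or passed the fresh level and a larger number that stayed below it. Of 28 factors tested, 6 were higher in rMSC, 18 were lower, 1 was within 2-fold and 3 were unresolved, with a median log2 fold change of -1.60. Levels in a library are sums over all its cells, so fewer cells making a transcript and less of it per cell cannot be told apart.

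Kitl (chr10:100015630-100100416 on GRCm38, plus strand), the gene behind the reporter, stood at 242, 224 and 242 CPM in the rMSC libraries, against 315, 282 and 458 CPM in the Scf-GFP(+) libraries. Control stroma held 35.4, 33.6 and 27.2 CPM. The rMSC libraries lay just under the lowest Scf-GFP(+) library and far above every control library. The difference from Scf-GFP(+) was -0.57 ± 0.18 (95% interval -1.01 to -0.14, adjusted p = 0.0275). This call was lost whenever any 1 rMSC library was left out, with adjusted p of 0.0783 to 0.103, and with total-count scaling (0.0619). The difference itself was -0.58, -0.52 and -0.58 without rMSC replicates 1, 2 and 3. A fit with 1 library fewer has less power. Here and below, a call lost that way does not by itself show that it depended on the library left out.

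Cxcl12 (chr6:117168535-117181367, plus strand), the chemokine that retains stem cells and lymphoid progenitors, stood at 1163, 1141 and 1152 CPM in rMSC and 33470, 24240 and 36320 CPM in Scf-GFP(+). It was 27.2-fold lower in rMSC (log2 fold change -4.77 ± 0.22, adjusted p = 8.62e-06). Control stroma, at 5298, 5479 and 5256 CPM, lay between the groups. Vcam1, the adhesion molecule that binds integrins of blood progenitors, had 172, 193 and 187 CPM in rMSC and 1836, 1197 and 1700 CPM in Scf-GFP(+) (-3.10 ± 0.18, adjusted p = 1.83e-05). Its control level of 268 to 275 CPM was also above that of rMSC. Both genes thus stood lower in rMSC than in either of the other stromal groups.

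Bmp4, a bone morphogenetic protein, was the niche factor within 2-fold, at 79.8, 77.7 and 82 CPM in rMSC and 111, 63.5 and 119 CPM in Scf-GFP(+) (95% interval -0.83 to 0.24). The groups overlapped because Scf-GFP(+) replicate 2 lay under all rMSC libraries, and without it Bmp4 was called lower (-0.52, adjusted p = 0.00245). Control stroma held 3.23 to 4.45 CPM. Bmp6, its relative that also regulates iron handling, was far lower, with 0.262, 0.237 and 0.494 CPM in rMSC and 301, 359 and 606 CPM in Scf-GFP(+) (-10.29 ± 0.46).

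Angpt1, the angiopoietin that acts on the Tie2 receptor of endothelium and stem cells, had 641, 637 and 625 CPM in rMSC and 74.1, 86.1 and 96.7 CPM in Scf-GFP(+), and was 7.4-fold higher in rMSC (2.89 ± 0.12, adjusted p = 6.99e-06). Fgf7, an epithelial growth factor, had 766, 758 and 769 CPM in rMSC and 62.2, 82.6 and 104 CPM in Scf-GFP(+) (3.20 ± 0.20). Every rMSC library exceeded every Scf-GFP(+) library for both genes by several fold. Jag1, a Notch ligand, stood at 103, 105 and 118 CPM in rMSC and 35, 40.2 and 37.6 CPM in Scf-GFP(+) (1.53 ± 0.09). Csf1, the macrophage growth factor, was at 1281 ± 23.1 CPM in rMSC and 617 ± 145 CPM in Scf-GFP(+) (mean ± SD, n = 3 each), a difference of 1.05 ± 0.18. Its control level was 1209 ± 14.7 CPM. Tgfb2 was higher by 1.87 ± 0.33, whereas Tgfb1, which holds stem cells in quiescence, was lower at -1.34 ± 0.24. Thpo, the megakaryocyte and stem cell cytokine thrombopoietin, was also called higher, but from 0.955, 1.11 and 1.34 CPM in rMSC and 0, 0.176 and 0 CPM in Scf-GFP(+). That call (adjusted p = 0.0304) was lost without any 1 rMSC library, at 0.0856 to 0.102.

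Cytokines for lymphoid and myeloid cells were mostly lower. Il7, required by B cell progenitors, had 6.59, 7.09 and 6.57 CPM in rMSC and 43.5, 68.5 and 91.7 CPM in Scf-GFP(+) (-3.33 ± 0.28, adjusted p = 7.09e-05), and 0.682 to 1.55 CPM in control stroma. Il15, for natural killer cells, was lower by -2.21 ± 0.23, and Il34, a second ligand of the Csf1 receptor, by -4.09 ± 0.29. Flt3l, the ligand of Flt3 on early progenitors, differed less (-1.05 ± 0.18), with 4.51 ± 0.284 CPM in rMSC and 9.32 ± 0.93 CPM in Scf-GFP(+). Tnfsf11, the osteoclast factor RANKL, had 2 counts in the 3 rMSC libraries together and 15.4, 11.4 and 18.4 CPM in Scf-GFP(+). Il6 was near 0 in both groups, at 0.0148 to 0.154 CPM in rMSC and 0.423 to 1.36 CPM in Scf-GFP(+). Its lower call (-3.45) was lost without rMSC replicate 3 (adjusted p = 0.073). Ccl2, a monocyte chemokine, was lower by -2.05 ± 0.53.

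Igf1, a growth factor made by fresh and by control stroma, was nearly absent from rMSC, with 0.246, 0.0296 and 0.615 CPM in rMSC, 126, 104 and 108 CPM in Scf-GFP(+) and 166 to 167 CPM in control stroma (-8.52 ± 0.63, adjusted p = 4.37e-05). Angptl4, an inhibitor of lipoprotein lipase, was also near 0, at 0.593 to 0.739 CPM in rMSC, 154 to 280.4 CPM in Scf-GFP(+) and 86 to 96.4 CPM in control stroma. Dkk1, a Wnt antagonist, had no count in any rMSC library and 4.02, 10.4 and 15.1 CPM in Scf-GFP(+), at least 226-fold lower against a floor of 3 counts per library. Dkk1 was at 0 in the control libraries too. Angptl2 was lower by -0.88 ± 0.12 and Cdh2 (N-cadherin) by -1.55 ± 0.11. Spp1 (osteopontin), which limits stem cell number, was barely called, at 3414 to 3573 CPM in rMSC and 3757 to 7049 CPM in Scf-GFP(+) (-0.70 ± 0.23, adjusted p = 0.0323). Leaving out any 1 rMSC library (0.0875 to 0.1) or Scf-GFP(+) replicate 2 or 3 (0.0837 and 0.0746) ended the call on Spp1.

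The unresolved factors were Ptn, Dll1 and Lif. Ptn (pleiotrophin) had 14.4, 12.4 and 12.7 CPM in rMSC and 3.96, 56.2 and 63.6 CPM in Scf-GFP(+), so that Scf-GFP(+) replicate 1 lay under rMSC and the others above it. Without that library Ptn was called lower (-2.16, adjusted p = 3.32e-05). Dll1, a Notch ligand, became a lower call without Scf-GFP(+) replicate 2 (-2.65, adjusted p = 0.0347). Lif had 0.308 to 0.641 CPM in rMSC and 0 to 0.916 CPM in Scf-GFP(+), with no call in any setting tried.

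**Figure D1:**
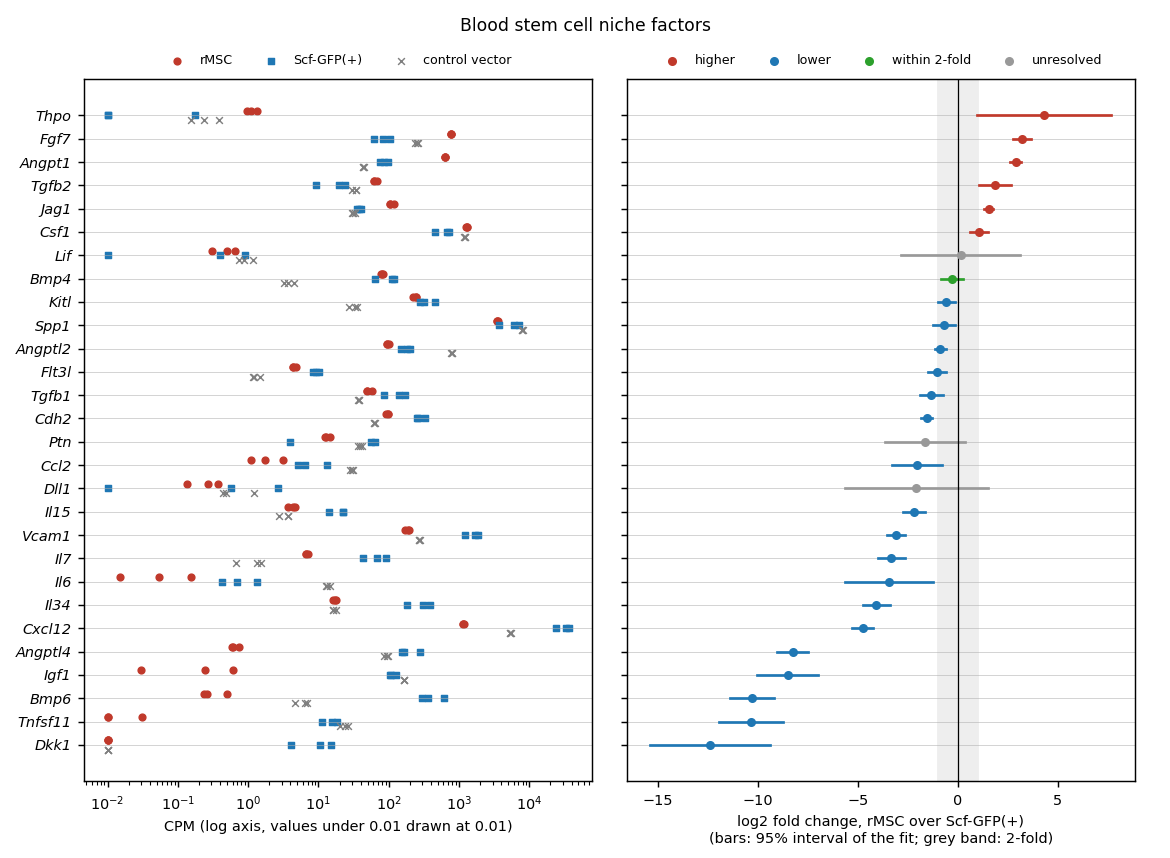
Niche factors, ordered by difference. Left, CPM in each library on a log axis (values under 0.01 drawn at 0.01), 3 libraries per group. Right, log2 fold change of rMSC over Scf-GFP(+) with its 95% interval, coloured by call. Kitl and Bmp4 sit near the fresh level and far above control stroma, Angpt1 and Fgf7 lie above the fresh level, and Cxcl12, Igf1 and Bmp6 lie far below it.

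Most genes that define perivascular marrow stroma were not at the fresh level. Of 29 tested, 25 were lower in rMSC, 2 were higher and 2 were within 2-fold, with a median log2 fold change of -5.12. H2-M9, the remaining list member, had too few counts to be tested. Lepr (chr4:101717404-101815352, plus strand), the leptin receptor that marks these cells, had 15.5, 16.7 and 18.1 CPM in rMSC and 2296, 2285 and 3019 CPM in Scf-GFP(+), 151-fold lower (-7.24 ± 0.19, adjusted p = 3.43e-06). Control stroma held 0.368, 0.259 and 0.169 CPM of Lepr, so rMSC stood above control and far under fresh cells. Adipoq (adiponectin) had 4 counts in all rMSC libraries together and 1452, 1389 and 2345 CPM in Scf-GFP(+). The iron carrier Trf had 8 counts in rMSC in all and 2297 to 4392 CPM in Scf-GFP(+).

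The transcription factors of these cells did not move together. Foxc1, which maintains the perivascular fate and represses fat formation, was within 2-fold, at 189, 179 and 188 CPM in rMSC and 209.6, 192 and 308 CPM in Scf-GFP(+) (95% interval -0.78 to 0.08). The rMSC libraries lay just under the lowest Scf-GFP(+) library, and control stroma, at 99 to 102 CPM, under every library of both groups. Ebf1 had 4.65, 4.3 and 4.61 CPM in rMSC and 133, 137 and 201 CPM in Scf-GFP(+) (-5.12 ± 0.20, adjusted p = 6.13e-06), while control stroma kept 182 to 195 CPM. Ebf3, which keeps the niche from ossifying, was lower by -3.45 ± 0.29, and Ebf2 by -1.63 ± 0.28. Ebf1, Ebf2 and Ebf3 each had a lower mean in rMSC than in control stroma (4.52, 4.95 and 6.66 CPM in rMSC, 189, 88.1 and 23.4 CPM in control). Epas1, a hypoxia-inducible factor, had 78.8 ± 4.38 CPM in rMSC and 544 ± 223 CPM in Scf-GFP(+) (-2.79 ± 0.29), against 13.6 ± 1.07 CPM in control. Snai2, a regulator of mesenchymal state, was slightly higher (0.50 ± 0.12, adjusted p = 0.00916).

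Fbln5, an elastic fibre protein, was the other gene within 2-fold, at 2074, 2099 and 1999 CPM in rMSC and 1915, 2137 and 3200 CPM in Scf-GFP(+), against 285 to 296 CPM in control stroma. Cspg4 (NG2), a pericyte proteoglycan, was above the fresh level, at 317, 351 and 353 CPM in rMSC and 48.3, 99.3 and 31.6 CPM in Scf-GFP(+) (2.51 ± 0.41, adjusted p = 0.00142). The other pericyte genes were not. Pdgfrb, the platelet-derived growth factor receptor beta, differed by -0.45 ± 0.14 (adjusted p = 0.0241), a call lost without any 1 rMSC library (0.0815 to 0.0883) and without Scf-GFP(+) replicate 1 or 3 (0.064 and 0.0701). Mcam (CD146) was at 0.709 to 1.1 CPM in rMSC and 23.4 to 54 CPM in Scf-GFP(+) (-5.17 ± 0.43). Nes (nestin) was called lower, at 0 to 0.294 CPM in rMSC and a low 2.98 to 7.09 CPM in Scf-GFP(+). It had 36 counts in rMSC in all and 1178 in Scf-GFP(+).

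The other perivascular genes, most of them for secreted proteins, were lower. Igfbp5, an insulin-like growth factor binding protein, had 5.88, 6.52 and 4.04 CPM in rMSC and 4669, 5385 and 7741 CPM in Scf-GFP(+) (-10.08 ± 0.37, adjusted p = 4.96e-06). Hp (haptoglobin) had 1.42 to 1.74 CPM in rMSC and 1410 to 4596 CPM in Scf-GFP(+) (-10.82 ± 0.61), and Cxcl14 0.237 to 0.334 CPM in rMSC and 366 to 1334 CPM in Scf-GFP(+) (-11.38 ± 0.69). Gas6, a ligand of the TAM receptors, stood at 398 ± 18.9 CPM in rMSC and 2842 ± 1042 CPM in Scf-GFP(+) (-2.83 ± 0.29), and the BMP antagonist Grem1 differed by -2.64 ± 0.30. Igfbp4 differed by -2.82 ± 0.34, Agt (angiotensinogen) by -7.27 ± 0.28, Lpl (lipoprotein lipase) by -6.59 ± 0.28 and the BMP antagonist Chrdl1 by -6.10 ± 0.18. Esm1, a proteoglycan, was lower (-4.58 ± 0.21) but at 31.1 to 38.9 CPM in rMSC still above the 2.1 to 3.09 CPM of control stroma. Wisp2, a CCN family protein, was lower by -3.64 ± 0.22 and the phosphodiesterase Gdpd2 by -10.79 ± 0.51. The membrane proteins Tmem176a and Tmem176b were lower by -11.80 ± 0.46 and -11.65 ± 0.28. Rarres2 (chemerin) had 4 counts in rMSC in all and 115 to 176 CPM in Scf-GFP(+).

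**Figure D2:**
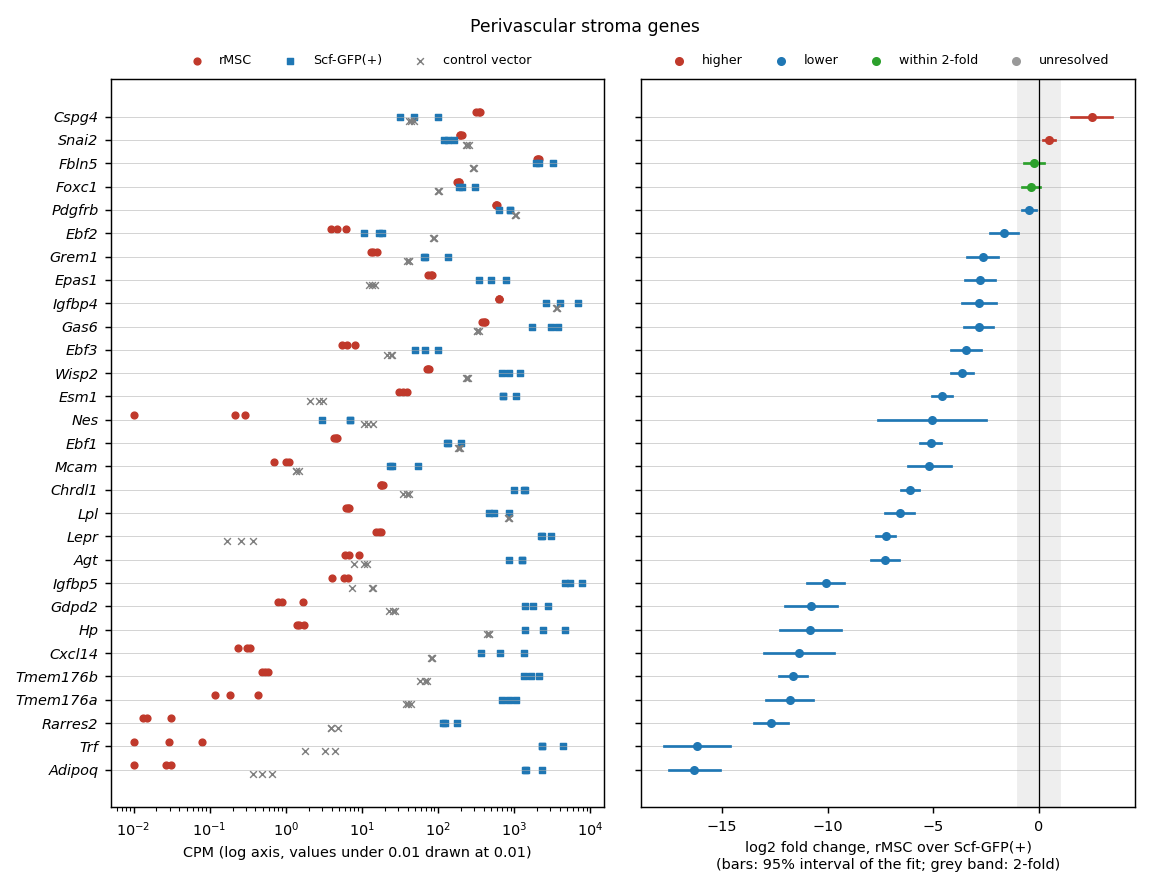
Perivascular stroma genes tested, ordered by difference, with CPM per library on a log axis (left, values under 0.01 drawn at 0.01) and the log2 fold change with its 95% interval (right). Fbln5 overlaps the fresh libraries, Foxc1 lies just under the lowest of them, Cspg4 and Snai2 lie above them, and the 25 genes from Pdgfrb downward are lower.

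Genes of bone, fat and cartilage were lower in rMSC apart from a few. Of 28 osteoblast and osteocyte genes tested, 27 were lower and 1 was higher (median -7.61, or -7.41 with the genes at 0 in rMSC set at their floor). Ibsp (bone sialoprotein) had 0, 0.148 and 0.16 CPM in rMSC and 6197, 9536 and 10760 CPM in Scf-GFP(+) (-16.33 ± 0.69, adjusted p = 7.22e-06). Alpl, the alkaline phosphatase of mineralizing cells, had 0.0308 to 0.374 CPM in rMSC and 614 to 759.8 CPM in Scf-GFP(+). Bglap (osteocalcin) had 0.878 to 1.23 CPM in rMSC and 1811 to 3416 CPM in Scf-GFP(+), a value that may be shared with its near-identical copies Bglap2 and Bglap3. Omd, the keratan sulphate proteoglycan osteomodulin, was the exception, with 1151, 1118 and 1167 CPM in rMSC and 28.1, 44.7 and 37.4 CPM in Scf-GFP(+) (4.96 ± 0.20, adjusted p = 6.28e-06). Control stroma held 34.5 to 35.1 CPM of Omd.

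Of 12 adipocyte genes tested, 8 were lower, 2 were higher and 2 were within 2-fold (median -5.11). Fabp4, a fatty acid binding protein of fat cells, was at 0.509 ± 0.0457 CPM in rMSC and 53 ± 24.6 CPM in Scf-GFP(+) (-6.69 ± 0.47). Scd1, a fatty acid desaturase, was higher by 1.31 ± 0.33. The higher call on Plin4 (adjusted p = 0.0413), a lipid droplet protein, was lost without any 1 rMSC library (0.067 to 0.107) or Scf-GFP(+) replicate 1 (0.0684). Cebpb, at 92.6 to 103 CPM in rMSC and 68.4 to 115 CPM in Scf-GFP(+), and Fabp5 were within 2-fold, though Fabp5 was called higher without Scf-GFP(+) replicate 2 (0.61, adjusted p = 0.0134). Of 10 cartilage genes tested, 8 were lower and 2 were higher (median -4.68, or -4.12 with the gene at 0 set at its floor). Col2a1, the main cartilage collagen, had 10 to 11.7 CPM in rMSC and 892 to 3089 CPM in Scf-GFP(+) (-7.56 ± 0.54). Comp, a cartilage matrix protein, was higher, at 463, 426 and 439.7 CPM in rMSC and 101, 59.1 and 67 CPM in Scf-GFP(+) (2.54 ± 0.21, adjusted p = 6.83e-05), with 8.25 to 9.24 CPM in control stroma. Sox9, the cartilage transcription factor, was also higher (1.51 ± 0.37).

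Surface proteins used to isolate mesenchymal cells were mixed. Of 17 tested, 7 were higher, 5 lower, 4 within 2-fold and 1 unresolved (median 0.12). Pdgfra, the receptor by which fresh mesenchymal cells are often sorted, stood at 331, 312 and 313 CPM in rMSC and 301, 283 and 376 CPM in Scf-GFP(+) (95% interval -0.30 to 0.28), against 1007 to 1037 CPM in control stroma. Nt5e (CD73) was at 27.2, 26.8 and 26.2 CPM in rMSC and 41.5, 13.1 and 25.1 CPM in Scf-GFP(+), with 0.964 to 1.01 CPM in control. For both genes the rMSC values fell inside the range of the fresh libraries. Ly6a (Sca-1) lay far above the fresh level, at 829.5, 833 and 792 CPM in rMSC and 3.96, 6.8 and 31.1 CPM in Scf-GFP(+) (5.88 ± 0.85, adjusted p = 0.000861), as it did in control stroma (1015 to 1094 CPM). Cd44, a hyaluronan receptor, was higher by 1.85 ± 0.15, and the integrin subunits Itga5 and Itgav by 1.93 ± 0.13 and 1.30 ± 0.14. Cd200, an inhibitory surface ligand, was lower, at 6.82 to 8.26 CPM in rMSC and 107 to 236 CPM in Scf-GFP(+) (-4.59 ± 0.32). The lower call on Eng (endoglin, -0.55 ± 0.16) was lost without any 1 rMSC library (0.0509 to 0.0858) or Scf-GFP(+) replicate 3 (0.0523).

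Transcription factors of mesenchyme lay mostly above the fresh level. Of 20 tested, 15 were higher, 4 lower and 1 within 2-fold (median 1.70). The summed level was 2008 to 2083 CPM in rMSC and 705 to 1046 CPM in Scf-GFP(+). In control stroma it was 1580 to 1593 CPM, also above the fresh level. Prrx2, a homeobox factor of limb and craniofacial mesenchyme, had 308, 312 and 320.4 CPM in rMSC and 0.201, 0.951 and 0.982 CPM in Scf-GFP(+) (8.85 ± 0.53, adjusted p = 1.87e-05). Hmga2, a chromatin protein of growing mesenchyme, had 45 ± 2.41 CPM in rMSC and 1.13 ± 0.439 CPM in Scf-GFP(+) (5.29 ± 0.29). Zfpm2 differed by 4.15 ± 0.41 and the nuclear receptor Nr2f2 by 2.78 ± 0.17. Zeb2 was lower (-1.74 ± 0.10) and Nfia was lower (-1.04 ± 0.12), while Nfib was within 2-fold. The lower calls on Runx1 and Meis1 were lost without any 1 rMSC library, which left 2 lower genes (0.0682 to 0.0804 for Runx1, 0.1 to 0.127 for Meis1), and that on Meis1 also without Scf-GFP(+) replicate 2 or 3 (0.15 and 0.112).

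Extracellular matrix genes differed in both directions. Of 30 tested, 10 were higher, 17 lower and 3 unresolved (median -0.80). The summed level was 75640 to 80060 CPM in rMSC, 16990 to 21990 CPM in Scf-GFP(+) and 77570 to 79660 CPM in control stroma. The matrix genes Col1a1, Col1a2, Sparc, Postn and Ibsp were counted in the osteoblast list instead. That list summed to 14290 to 14590 CPM in rMSC and 143200 to 211000 CPM in Scf-GFP(+). The matrix sum is thus not that of all matrix genes, and Thbs1 was a large part of it in rMSC. Thbs1 (thrombospondin 1), an adhesion protein that activates TGF-beta, had 36380, 37570 and 39780 CPM in rMSC and 326, 870.4 and 948 CPM in Scf-GFP(+) (5.73 ± 0.47, adjusted p = 6.45e-05), and Fn1 (fibronectin) 14160, 14470 and 15310 CPM in rMSC and 148, 439 and 295 CPM in Scf-GFP(+) (5.64 ± 0.44). Control stroma held 2270 to 2417 CPM of Thbs1 and 13740 to 14440 CPM of Fn1, so that Fn1 was at a like level in both cultures and Thbs1 was not. The metalloproteinase inhibitors Timp3 and Timp2 were higher by 4.88 ± 0.32 and 3.17 ± 0.15, with Timp3 at 9368 to 9696 CPM in rMSC, 239 to 476 CPM in Scf-GFP(+) and 226 to 248 CPM in control. Dcn (decorin), a small proteoglycan, had 4.16, 2.7 and 3.15 CPM in rMSC and 1439, 1933 and 2153 CPM in Scf-GFP(+) (-9.11 ± 0.29), and its relative Lum (lumican) had 2 counts in rMSC in all and 552 to 610.3 CPM in Scf-GFP(+). Eln (elastin) had no count in rMSC and 22.7 to 39.7 CPM in Scf-GFP(+), at least 757-fold lower. Tnc (tenascin C) was lower by -2.47 ± 0.20 and the cross-linking enzyme Loxl2 by -4.04 ± 0.34.

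Of 17 contractile and serum-response genes, 4 were higher, 8 lower, 2 within 2-fold and 3 unresolved (median -0.45). Ctgf, a matricellular target of YAP and serum signals, had 2316 ± 37.7 CPM in rMSC and 326 ± 125 CPM in Scf-GFP(+) (2.83 ± 0.27), whereas Myh11, the smooth muscle myosin, had 0.326 to 0.493 CPM in rMSC and 175 to 600.3 CPM in Scf-GFP(+) (-9.89 ± 0.62). Actb (beta-actin) was within 2-fold (0.06 ± 0.11). Zyx (zyxin) was called higher (adjusted p = 0.0396), a call lost without any 1 rMSC library (0.0804 to 0.0959) or Scf-GFP(+) replicate 3 (0.0554).

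Interferon-stimulated genes were mostly above the fresh level. Irf3 and Irf7, 2 of the transduced genes, are the factors that switch on type I interferon and many of these genes during viral infection. Of 44 tested, 30 were higher in rMSC, 6 lower, 3 within 2-fold and 5 unresolved, with a median log2 fold change of 1.91. Ifit1, which binds viral RNA caps, stood at 1296, 1280 and 1229 CPM in rMSC and 32.3, 7.47 and 14.6 CPM in Scf-GFP(+), 69.7-fold higher (6.12 ± 0.58, adjusted p = 0.000124). Ifit3, its partner, stood at 893, 864 and 861 CPM in rMSC and 27.9, 18 and 16.1 CPM in Scf-GFP(+) (5.40 ± 0.24). Every rMSC library lay far above every Scf-GFP(+) library for both genes. Control stroma lay between, at 106 to 111 CPM for Ifit1 and 97.1 to 103 CPM for Ifit3. Oas2, an RNA-sensing synthetase, had 50.1, 54.1 and 56.2 CPM in rMSC and 2 counts in all Scf-GFP(+) libraries together (adjusted p = 3.77e-06), and Oas1g 30.7 to 33 CPM in rMSC and 0.461 to 1.39 CPM in Scf-GFP(+) (5.36 ± 0.46). Mx2, a dynamin-like antiviral protein, was at 25.4 to 28.9 CPM in rMSC and 0.0709 to 0.898 CPM in Scf-GFP(+) (5.55 ± 0.76). Ifit and Oas1 genes have close copies whose reads the authors' counting may have split, so single values in these families are uncertain.

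The members that were not higher are also known targets of interferon. Cxcl10, a T cell chemokine, had 0.893, 2.02 and 1.2 CPM in rMSC and 10.1, 9.41 and 4.1 CPM in Scf-GFP(+) (-2.52 ± 0.48, adjusted p = 0.00304). Irf1, an interferon-gamma responsive factor, had 35.9, 35.8 and 31.3 CPM in rMSC and 94.8, 83.3 and 118 CPM in Scf-GFP(+) (-1.52 ± 0.14), and Oasl1, which restrains Irf7 translation, was lower by -2.12 ± 0.26. The guanylate-binding protein Gbp5 (-0.98 ± 0.29) was called lower, but not without Scf-GFP(+) replicate 2 (adjusted p = 0.0608) or 3 (0.0572), or rMSC replicate 2 (0.0761) or 3 (0.0811). The immunity-related GTPase Iigp1 was lower by -0.89 ± 0.10. Ifitm3, Ifih1 and Zbp1 were within 2-fold, with Ifitm3, an entry inhibitor, at 795 to 853 CPM in rMSC and 637 to 1054 CPM in Scf-GFP(+). Zbp1 was called higher without Scf-GFP(+) replicate 3 (0.70, adjusted p = 0.00307).

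The promoters of the higher members named above that had a sequence window, and of Cxcl10, which was lower, are given to show where the interferon-stimulated response element lies. Each sequence is the RefSeq window from 250 bases before to 50 after the gene's start (GRCm38.p6), written 5' to 3' on the gene's strand. Capitals mark GAAANNGAA or its reverse complement, and neighbouring matches may overlap. The windows are Ifit1 at chr19:34640639-34640938 (plus strand), Ifit3 at chr19:34583279-34583578 (plus strand), Oas1g at chr5:120887564-120887863 (minus strand) and Cxcl10 at chr5:92348840-92349139 (minus strand).
Ifit1: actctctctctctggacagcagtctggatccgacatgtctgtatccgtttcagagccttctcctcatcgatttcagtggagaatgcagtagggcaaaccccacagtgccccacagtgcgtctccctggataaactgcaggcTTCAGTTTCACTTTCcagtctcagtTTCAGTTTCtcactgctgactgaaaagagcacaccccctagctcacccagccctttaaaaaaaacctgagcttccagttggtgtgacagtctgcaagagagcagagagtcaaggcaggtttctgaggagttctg
Ifit3: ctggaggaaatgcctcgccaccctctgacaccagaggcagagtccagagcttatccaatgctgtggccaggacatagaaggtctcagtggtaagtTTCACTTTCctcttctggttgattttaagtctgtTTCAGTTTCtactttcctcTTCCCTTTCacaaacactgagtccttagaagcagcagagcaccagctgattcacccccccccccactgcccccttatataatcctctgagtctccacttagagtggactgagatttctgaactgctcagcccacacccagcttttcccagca
Oas1g: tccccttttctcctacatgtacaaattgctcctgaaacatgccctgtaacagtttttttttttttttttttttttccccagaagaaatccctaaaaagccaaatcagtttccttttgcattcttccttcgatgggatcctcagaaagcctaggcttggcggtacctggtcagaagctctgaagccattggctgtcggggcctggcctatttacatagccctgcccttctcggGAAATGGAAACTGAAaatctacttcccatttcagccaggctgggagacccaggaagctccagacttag
Cxcl10: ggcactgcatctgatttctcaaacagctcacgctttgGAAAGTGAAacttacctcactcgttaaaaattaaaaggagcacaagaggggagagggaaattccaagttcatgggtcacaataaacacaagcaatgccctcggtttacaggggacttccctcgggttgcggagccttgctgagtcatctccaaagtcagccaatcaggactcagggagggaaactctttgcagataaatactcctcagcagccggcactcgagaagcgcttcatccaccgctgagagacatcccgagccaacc

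Ifit1 and Ifit3 each held 3 matches, Oas1g held 2 and Cxcl10 held 1. Of the 30 higher members, 22 had a window and 16 of those (72.7%) held the element, as did 2 of 5 lower members, 2 of 2 within 2-fold and 3 of 4 unresolved. Among the genes tested, 932 of 10691 with a window (8.72%) held it, and 8.56% of all 32851 promoter windows did. The match is a description of letters and not of a bound site.

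MHC class I genes, which present viral peptides and are induced by interferon, were not above the fresh level. Of 14 tested, 0 were higher, 10 were lower, 3 were within 2-fold and 1 was unresolved (median -0.93). With edgeR at an unadjusted p under 0.05, with DESeq2 and with voom the number higher was also 0. H2-K1, a classical class I heavy chain, had 73.5, 75 and 67.9 CPM in rMSC and 2826, 1954 and 2883 CPM in Scf-GFP(+) (-5.15 ± 0.20, adjusted p = 5.77e-06). H2-D1 had 229, 233 and 206 CPM in rMSC and 2299, 1605 and 2372 CPM in Scf-GFP(+) (-3.23 ± 0.18). Every rMSC library lay under every Scf-GFP(+) library for both, and control stroma held 193 to 201 CPM of H2-K1 and 191 to 208 CPM of H2-D1. The immunoproteasome subunits Psmb8 and Psmb9 were lower by -3.61 ± 0.18 and -3.88 ± 0.24. Tapbp (tapasin) and the peptide transporter Tap1 were within 2-fold, at 573 to 597 and 77 to 84.7 CPM in rMSC and 493 to 669 and 81.1 to 104 CPM in Scf-GFP(+). Class I heavy chains are closely alike, so H2 values are uncertain between members.

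**Figure D3:**
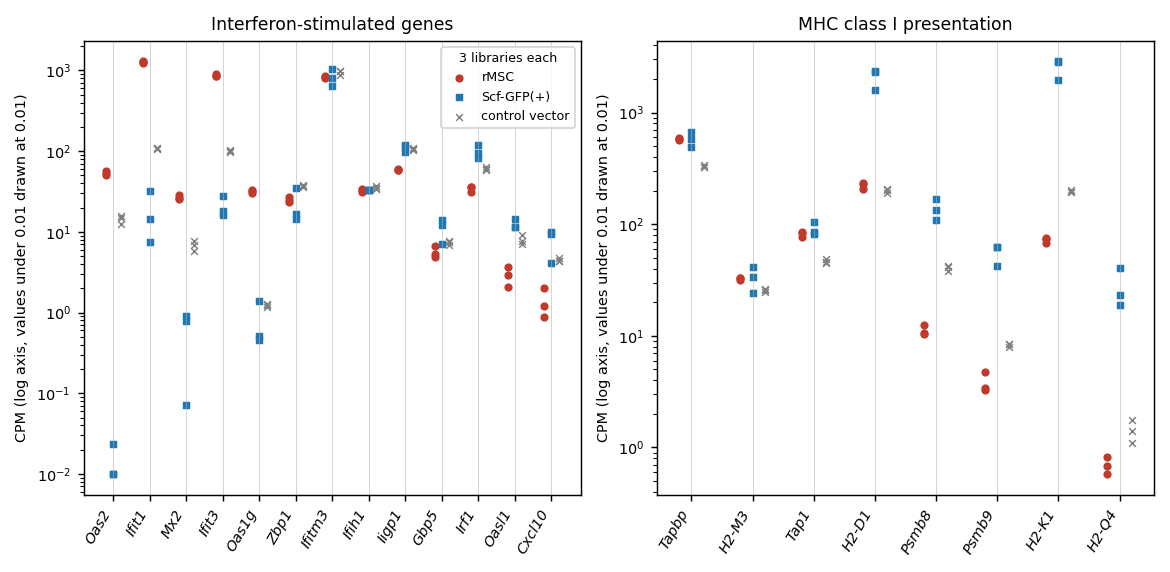
CPM in each library on a log axis (values under 0.01 drawn at 0.01) for the named interferon-stimulated genes (left) and MHC class I genes (right), ordered by difference, 3 libraries per group. Ifit1, Ifit3, Oas2, Oas1g and Mx2 lie above fresh and control libraries in rMSC, while H2-K1, Psmb8 and Psmb9 lie below both.

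Genes for folding and export of secreted proteins, a programme run by Xbp1 and Atf6, differed by small amounts. Of 34 tested, 20 were higher, 5 lower, 8 within 2-fold and 1 unresolved, with a median of 0.48. The summed level was 12970 to 13170 CPM in rMSC and 8223 to 10560 CPM in Scf-GFP(+). In control stroma, which carried no transduced gene, it was 15120 to 15370 CPM, above both. Ero1l, an oxidase that drives disulphide bond formation, was higher, at 308 ± 7.48 CPM in rMSC and 35 ± 4.54 CPM in Scf-GFP(+) (3.14 ± 0.12, adjusted p = 5.35e-06). Hsp90b1 (GRP94) was higher by 1.15 ± 0.15 and Dnajb9, a standard Xbp1 target, by 1.26 ± 0.13. Crebrf and Ssr3 were higher by 1.91 ± 0.13 and 1.29 ± 0.22. Control stroma held 338175 counts of Hsp90b1 beside 343951 in rMSC, and 24346 counts of Ero1l beside 63944 in rMSC. The main chaperone Hspa5 (BiP) was not higher, at 1064, 1032 and 1022 CPM in rMSC and 1187, 1559 and 1613 CPM in Scf-GFP(+). Its lower call (-0.48 ± 0.14) was lost without any 1 rMSC library (0.0591 to 0.0718), as was that on Dnajb11 (0.0764 to 0.1). Ero1lb was called lower, but not without rMSC replicate 1 (0.0505) or 3 (0.0557). Calr (calreticulin) and Sdf2l1 were lower by -0.56 ± 0.11 and -0.98 ± 0.19, and Pdia4, Pdia6 and Dnajc3 were within 2-fold, though Dnajc3 was called higher without Scf-GFP(+) replicate 3 (0.28, adjusted p = 0.00953). The lower calls in the list numbered 2 or 3 without any 1 rMSC library and 8 without Scf-GFP(+) replicate 1. The element TGACGTGG, searched on both strands, was in the promoter window of 1 of 17 higher members (Sec24d), 0 of 4 lower, 1 of 5 within 2-fold (Kdelr3) and 0 of 1 unresolved, beside 1.05% of genes tested.

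The integrated stress response, an Atf4 programme for amino acid supply, was higher for most members. Of 16 tested, 12 were higher, 2 lower, 1 within 2-fold and 1 unresolved (median 1.72). Trib3, a pseudokinase target of Atf4, had 113, 116 and 118 CPM in rMSC and 0.992, 0.846 and 0 CPM in Scf-GFP(+) (7.51 ± 0.79, adjusted p = 0.000197). Chac1, which degrades glutathione, had 93.1 to 101 CPM in rMSC and 0.496 to 2.71 CPM in Scf-GFP(+) (6.12 ± 0.59). Ddit3 (CHOP) had 129.8 ± 3.21 CPM in rMSC and 19.1 ± 4 CPM in Scf-GFP(+) (2.76 ± 0.17), with 19.4 to 23.8 CPM in control stroma. Cth, which makes cysteine, was higher by 6.72 ± 0.32 and the cystine importer Slc7a11 by 2.36 ± 0.57. Atf4 mRNA itself was within 2-fold (124 to 129.9 CPM in rMSC and 116 to 126 CPM in Scf-GFP(+)), and Atf3 and Ppp1r15a were lower by -4.37 ± 0.38 and -1.82 ± 0.07.

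Cell cycle genes were lower in rMSC, all 26 of 26 tested, with a median of -3.66. Their summed level was 305 to 383 CPM in rMSC and 5110, 4328 and 2592 CPM in the Scf-GFP(+) libraries. Control stroma, at 316 to 336 CPM, lay inside the range of rMSC. The replication licensing gene Mcm5 had 2.89 to 5.46 CPM in rMSC and 262 to 502 CPM in Scf-GFP(+) (-6.58 ± 0.38, adjusted p = 1.65e-05), and Mcm3, Mcm2, Tk1 and Rrm2 were lower by -5.72 ± 0.34, -5.18 ± 0.28, -4.98 ± 0.34 and -4.80 ± 0.36. Beside this, the same sum was 12340 to 13440 CPM in Scf-GFP(-) cells, and the erythroid marker sum was 30.5 to 34 CPM in rMSC, 5934, 4450 and 3112 CPM in Scf-GFP(+) and 16010 to 16090 CPM in Scf-GFP(-). The cell cycle sum and the erythroid sum had the same order over the Scf-GFP(+) libraries, and all 26 genes were higher in Scf-GFP(-) than in Scf-GFP(+). The part of blood cells in this difference was not tested.

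Inhibitors of the cell cycle and targets of p53 were mostly higher. Of 18 tested, 14 were higher, 3 lower and 1 within 2-fold (median 1.44). Cdkn2a, the Ink4a and Arf locus that accumulates with culture, had 23.7, 19.8 and 16.6 CPM in rMSC and 0.0472, 0.176 and 0 CPM in Scf-GFP(+) (8.10 ± 0.72, adjusted p = 9.37e-05), and its neighbour Cdkn2b 118 ± 1.56 CPM in rMSC and 0.648 ± 0.327 CPM in Scf-GFP(+) (7.48 ± 0.37). Control stroma held 11.9 to 19.9 CPM of Cdkn2a and 52.3 to 55.2 CPM of Cdkn2b. The p53 targets Ccng1, Mdm2 and Plk2 were higher by 2.92 ± 0.09, 2.26 ± 0.13 and 3.53 ± 0.15. Gdf15 was lower (-4.31 ± 0.53). The lower call on Cdkn2c was lost without any 1 rMSC library (0.0563 to 0.144) or Scf-GFP(+) replicate 1 or 2 (0.0936 and 0.0723). That on Cdkn1c was lost without rMSC replicate 2 or 3 (0.0636 and 0.0668) or Scf-GFP(+) replicate 1 or 3 (0.0528 and 0.0559).

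Cholesterol synthesis was higher in rMSC for 18 of 22 genes tested, lower for 2 and within 2-fold for 2 (median 1.84). The enzymes Cyp51, Fdft1, Msmo1 and Sqle were higher by 2.93 ± 0.11, 2.90 ± 0.17, 2.90 ± 0.22 and 2.70 ± 0.22, with Sqle at 247, 232 and 227 CPM in rMSC and 41.3, 43.1 and 24.4 CPM in Scf-GFP(+). The summed level was 1767 to 1843 CPM in rMSC, 447 to 554 CPM in Scf-GFP(+) and 1537 to 1636 CPM in control stroma. Pmvk was lower (-1.18 ± 0.16), and the lower call on Ebp was lost without any 1 rMSC library (0.0708 to 0.111). Of 25 glycolysis and hypoxia genes, 14 were higher, 4 lower, 6 within 2-fold and 1 unresolved (median 0.65). Pfkp, the platelet form of phosphofructokinase, was higher by 3.19 ± 0.16, Pkm by 1.86 ± 0.13 and the glucose carrier Slc2a1 by 1.91 ± 0.11. Ldha was within 2-fold, and Vegfa, Slc16a3 and Pfkfb3 were lower by -0.93 ± 0.21, -2.85 ± 0.25 and -2.61 ± 0.29.

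Immediate-early genes, which respond within minutes to stress and to tissue digestion, were lower in rMSC for 21 of 25 tested, higher for 1, within 2-fold for 1 and unresolved for 2 (median -2.91). Fos had 3.17, 5.41 and 5.13 CPM in rMSC and 2060, 2920 and 4716 CPM in Scf-GFP(+) (-9.46 ± 0.48, adjusted p = 1.14e-05), and Jun 12 to 13.4 CPM in rMSC and 666 to 1613 CPM in Scf-GFP(+) (-6.45 ± 0.37). The sum of the list was 736 to 752 CPM in rMSC, 7579, 10100 and 15620 CPM in Scf-GFP(+) and 1456 to 1494 CPM in Scf-GFP(-) cells. Control stroma, also cultured, summed to 1710 to 1783 CPM, so rMSC lay below every library of the other groups. Fresh cells came straight from digested marrow, so handling and group cannot be told apart here. The immediate-early list had 2 higher calls without Scf-GFP(+) replicate 1 or 3. Of 22 chemokine and inflammatory genes tested, 16 were lower, 1 higher, 2 within 2-fold and 3 unresolved (median -4.59). Ccl19, a lymphocyte chemokine of lymphoid stroma, had no count in rMSC and 67.1, 36.3 and 85.2 CPM in Scf-GFP(+), at least 1440-fold lower. Cxcl9 was lower by -8.67 ± 0.60. The higher gene, Ptgs2 (cyclooxygenase 2), had 18.2 to 18.3 CPM in rMSC and 0 to 2.19 CPM in Scf-GFP(+), and its call (adjusted p = 0.0198) was lost without any 1 rMSC library (0.0558 to 0.0568). The list had 3 higher calls without Scf-GFP(+) replicate 1 and 2 without replicate 2.

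Most blood and endothelial genes were at or near 0 in rMSC but not in the fresh libraries. All 14 tested megakaryocyte genes, all 13 granulocyte genes and all 14 pan-haematopoietic genes were lower in rMSC, as were 13 of 14 erythroid, 12 of 13 endothelial and 9 of 11 monocyte and macrophage genes. The medians were -11.78, -12.84, -10.22, -11.11, -6.54 and -6.38 in that order, or -10.80, -11.18, -8.40, -11.11, -6.54 and -6.35 with genes at 0 in rMSC set at their floor. The megakaryocyte sum was 12.5 to 14.3 CPM in rMSC and 279.8, 4189 and 3424 CPM in Scf-GFP(+), so replicate 1 of the fresh cells held far less than its fellows. The granulocyte sum was 47.3 to 48.7 CPM in rMSC and 4625, 1814 and 990.1 CPM in Scf-GFP(+), highest in that same replicate. The pan-haematopoietic sum was 6.2 to 7.13 CPM in rMSC, 553, 579.7 and 287 CPM in Scf-GFP(+) and 319 to 396 CPM in Scf-GFP(-) cells. Pf4, the platelet factor 4 gene, had no count in rMSC and 15.1, 1046 and 708 CPM in Scf-GFP(+). Of the B cell list, 2 of 5 genes tested were lower, Ebf1 among them, and 3 were unresolved, while 4 were lower without Scf-GFP(+) replicate 3. Of the Schwann cell list, Mbp and Gfap were lower, Pmp22 was higher and S100b was within 2-fold. Without Scf-GFP(+) replicate 3, S100b was called higher (0.43, adjusted p = 0.00192), and without replicate 1 an endothelial gene was called higher. Some list members are stromal too, such as Vcam1 in the macrophage list and Eng in the endothelial list. The macrophage sum was 183 to 204 CPM in rMSC and 1287 to 1970 CPM in Scf-GFP(+), most of it Vcam1 in both groups. Eng, at 62.2 to 72 CPM, was most of the endothelial sum in rMSC (74.4 to 83.9 CPM).

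Alas2, the erythroid enzyme of haem synthesis, was the exception in its list. It stood at 33.1, 30.1 and 29.4 CPM in rMSC and 42.7, 36.2 and 27.2 CPM in Scf-GFP(+) (95% interval -0.61 to 0.22), against 0.19, 0.3 and 0.183 CPM in control stroma. Scf-GFP(-) cells held 135.7 to 165.1 CPM. Over the Scf-GFP(+) libraries Alas2 had the same order as the erythroid sum (5934, 4450 and 3112 CPM). The part of red cell precursors in the fresh Alas2 level was not tested. The other erythroid genes were near 0 in rMSC, with 2 counts of Gata1 in all 3 libraries, against 103 to 174 CPM in Scf-GFP(+). Alas2 thus made up nearly all of the erythroid sum in rMSC. Without Scf-GFP(+) replicate 3 it was called lower (-0.33, adjusted p = 0.0408).

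**Figure D4:**
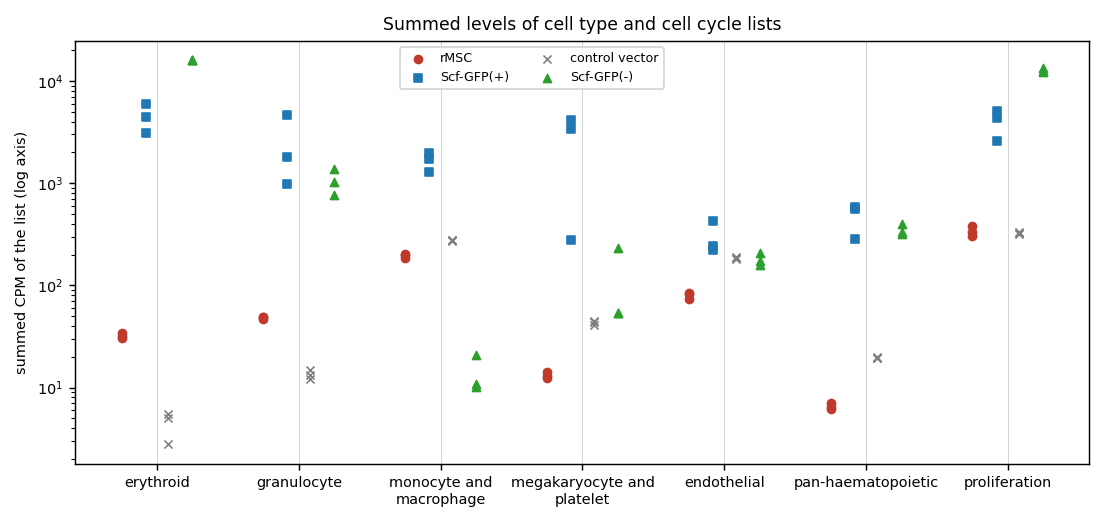
Summed CPM of each list in every library, on a log axis, 3 libraries per group. Scf-GFP(+) libraries lie above rMSC for each of the 7 lists drawn (erythroid, granulocyte, monocyte and macrophage, megakaryocyte and platelet, endothelial, pan-haematopoietic and proliferation). The macrophage sum is mostly Vcam1 in both groups, and the endothelial sum in rMSC is mostly Eng, genes that stroma also expresses. The erythroid and proliferation sums are highest in Scf-GFP(-) cells, and 1 Scf-GFP(+) library lies far under the others for platelet genes.

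Among genes that reached a mean of 20 CPM in rMSC or in Scf-GFP(+), the highest fold changes were of genes with few or no counts in fresh cells. Stmn2, a microtubule regulator of neurons, had 379.9, 338 and 363 CPM in rMSC and no count in Scf-GFP(+), at least 7770-fold higher. Masp1, a complement protease, had 265, 251 and 264 CPM in rMSC and no count in Scf-GFP(+), at least 5610-fold higher. Control stroma held 0.197 to 0.764 CPM of Stmn2 and 11.1 to 11.2 CPM of Masp1. Col10a1, the collagen of hypertrophic cartilage, had 405, 432 and 467 CPM in rMSC and 4 counts in all Scf-GFP(+) libraries together, with 0.241 to 0.423 CPM in control. Others were Rin1, Galnt13, Akr1c18, Klhdc8a, Murc and Gpr85, each with no count in Scf-GFP(+) and at least 647-fold higher.

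The 10 lowest fold changes held the blood genes Pf4 and Camp, the stromal genes Adipoq, Ibsp and Trf described above, and Adcy2, Cadm1, Slc38a5, Slc36a2 and Serpina3g. Adcy2, an adenylyl cyclase, had no count in rMSC and 139, 149 and 224 CPM in Scf-GFP(+), at least 3920-fold lower. Cadm1, a cell adhesion molecule, had no count in rMSC and 101, 177 and 162 CPM in Scf-GFP(+), at least 3370-fold lower. Serpina3g, a protease inhibitor, had 1 count in all rMSC libraries and 365 to 629.9 CPM in Scf-GFP(+), with 41.5 to 43.2 CPM in control stroma.

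**Figure D5:**
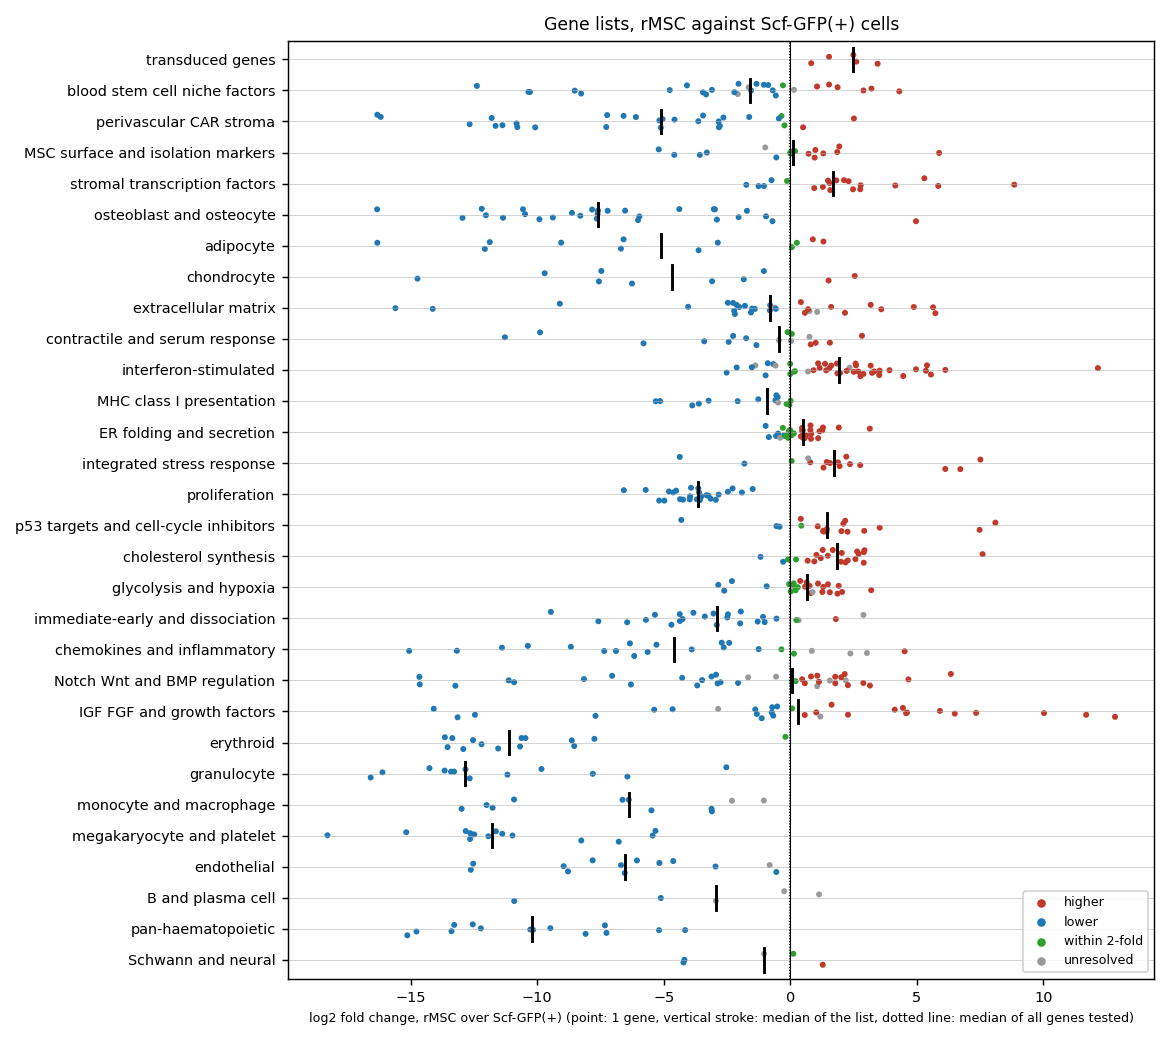
Log2 fold change of rMSC over Scf-GFP(+) for each tested member of the 30 gene lists, coloured by call. Vertical strokes mark list medians and the dotted line the median of all genes tested (-0.07). Transduced, mesenchymal factor, interferon, stress response and cholesterol lists sit mainly to the right, and perivascular, osteoblast, cell cycle and blood lists to the left.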

How the data were processed

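RNA was taken from 1000 to 5000 sorted cells per library, amplified with SMART-Seq v4, made into Nextera XT libraries and sequenced on a NextSeq 500 as single reads of 150 bp, per the labels' protocols. Per the submitters' processing notes, STAR 2.4.1c and featureCounts 1.4.6 were used with mm10; the labels name Ensembl GRCm38 release 77. Whether counting used strand is not given in the sources used here. The authors deposited raw counts per gene symbol, 1 file of 24062 symbols per library. The 27 symbols turned into dates (0.183 to 0.270% of counts) were left out, and no mitochondrially encoded gene is in the files.

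The 6 libraries were fitted alone in R 4.3.3 with edgeR 4.0.16 (filterByExpr, TMM, quasi-likelihood F-test; residual df 4, prior df 2.65), with group as the sole term. Standard errors were taken as the fold change over the square root of F. Control and Scf-GFP(-) levels were put on the same TMM scale. Totals of 60507051 to 85353566 counts set the precision; floors of 3 counts per library (0.0352 to 0.0497 CPM) cover counting error alone, because reads here carry no molecular identifiers. Libraries of a group differed beyond sampling noise, far less so in rMSC. The chi-square per gene between 2 libraries was 8.17 to 12.7 in rMSC and 163.5 to 326.1 in Scf-GFP(+). Amplification and differences between samples cannot be told apart in these values. The test was also run on simulated counts, where it called 0.0889% of unchanged genes. It called 29.7% of genes changed 2-fold and 70.1% of genes changed 4-fold. Far fewer genes were changed there than were called in the data, so these shares may not hold for the data. Alternatives used DESeq2 1.42.0, limma 3.58.1, other scalings, filters and fits, and each library left out.

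The genes and 30 lists were chosen with earlier results of these data known. Named genes were all transduced, niche and perivascular genes, and of each other list up to 5 called genes per direction with the largest difference and up to 3 within 2-fold with the highest CPM (with none of either, the 2 of highest CPM). The 10 largest fold changes in each direction were added, among called genes with a mean of 20 CPM or more in 1 group and no overlap between groups, without predicted genes, histones, receptor segments and ribosomal pseudogenes. Gene positions are those of GENCODE M21 on GRCm38, found for 289 of 294 named genes. Sec24d and Kdelr3 were named after their values were seen. A few genes that the rules name are not reported here.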

Additional observations from a re-analysis of the deposited data

How the results depend on the processing

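No gene was called in opposite directions by the fit reported and any alternative, and 235 of 255 called named genes kept their call in every alternative, of 18, in which they were tested (216 when a test against a 2-fold difference is added). Some were not tested in the fits with fewer genes. Many named genes were picked for large differences in these same data, so this share does not hold for all genes. Of all 9848 calls, 8493 to 8510 recurred in the same direction without 1 rMSC library, and 9259 to 9572 without 1 Scf-GFP(+) library. The test against a 2-fold difference (glmTreat) called 2059 genes higher and 3023 lower, and left 1 perivascular gene higher. Without the genes whose mean is higher in Scf-GFP(-) than in Scf-GFP(+), an alternative chosen after seeing the data, 2486 genes were lower, 2048 of them over 2-fold, and 1135 were within 2-fold; fewer genes are counted by construction. This alternative, counted among the 18, dropped genes from the fit reported without a refit, so it could change no call. The lower calls left were 0 for proliferation and 0 for erythroid genes, because every called gene of these lists was dropped, and 8 for pan-haematopoietic genes. The higher calls left were 2 for the integrated stress response, 5 for cholesterol synthesis, 9 for p53 targets and 9 for glycolysis. Without each library in turn, 3989 to 5061 genes were higher and 4613 to 5637 lower. With the replicate block, 4351 genes were higher and 4809 lower, with 17 niche factors lower, and 7 named genes lost their call. The replicate numbers did not pair the libraries (correlations -0.0105, -0.00575 and 0.00609, and 0 of 3 rMSC libraries closest to their own number). Total-count scaling moved the median of all genes by 0.152 (log2) and the share of calls that are higher to 52.5%, against 46.5%. That share was 56.3% without genes higher in Scf-GFP(-), a value set only by which genes were dropped. With all 12 libraries in 1 fit, the calls on Kitl (adjusted p = 0.466), Pdgfrb (0.437), Spp1 (0.166), Cdkn1c (0.301), Csf1 (0.0867), Plin4 (0.0646) and Tnc (0.0512) were lost. DESeq2 called 10275 genes and voom 10270. Counts within 2-fold were not computed for DESeq2, voom or glmTreat, nor blood lists in the fit without blood genes. Depth allows no level under 3 counts to be read.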

Other observations

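Notch, Wnt and BMP regulators differed in both directions. Of 37 tested, 14 were higher in rMSC, 16 lower, 2 within 2-fold and 5 unresolved, with a median log2 fold change of 0.08, beside -0.07 for all genes tested. The Notch target Hey1 was within 2-fold, at 7.07, 6.48 and 6.87 CPM in rMSC and 6.17, 5.36 and 6.16 CPM in Scf-GFP(+), against 0, 0.0273 and 0.0845 CPM in control stroma. Its relative Heyl, a mark of mural cells, had 2 counts in all rMSC libraries together and 100.1, 119 and 114 CPM in Scf-GFP(+). The BMP target Id1 was higher, at 81.6, 85.2 and 91.8 CPM in rMSC and 20.6, 21.3 and 11.7 CPM in Scf-GFP(+) (2.27 ± 0.23, adjusted p = 0.000176), and Inhba, a subunit of activin, was higher by 3.14 ± 0.35. The Wnt ligand Wnt5a was higher by 2.88 ± 0.28 and the Wnt antagonist Dkk2 by 6.34 ± 0.74. Rspo3 and Sfrp2, an activator and a secreted modulator of Wnt signals, had no count in rMSC and 36.6 to 63.6 and 18.6 to 74.2 CPM in Scf-GFP(+), at least 1080-fold and 1090-fold lower. Of 30 growth factor genes tested, 14 were higher, 13 lower, 1 within 2-fold and 2 unresolved (median 0.32). Igfbp6, a binding protein for insulin-like growth factor 2, had 1068, 1069 and 1048 CPM in rMSC and 0.0472, 9.83 and 9.99 CPM in Scf-GFP(+) (7.34 ± 1.38). Fgf10 had 82 to 90.6 CPM in rMSC and 2 counts in all Scf-GFP(+) libraries, and Bdnf, a neurotrophin, 41.8 to 46.5 CPM in rMSC and 0.142 to 0.711 CPM in Scf-GFP(+) (6.50 ± 0.53). Control stroma held both too, with 20435 counts of Fgf10 beside 17691 in rMSC, and 33.1 to 36.8 CPM of Bdnf. Vegfc, which drives lymphatic growth, had 4 counts in all rMSC libraries and 84.7 to 139 CPM in Scf-GFP(+), and Mdk (midkine) 2 counts in rMSC and 81.3 to 139 CPM in Scf-GFP(+).

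Genes within 2-fold of the fresh level in rMSC but far lower in control stroma were picked by a rule chosen after the values were seen. They are given as a description with no test. They were the 12 genes within 2-fold with at least 20 CPM in both groups and the largest ratio of Scf-GFP(+) to control. They included Alas2, Aldh3a1, Dock8, Stxbp2, Nt5e, Bmp4, Cdo1, Etl4, Tspan13, S100b and Reep6. Alas2 was higher still in Scf-GFP(-) cells (135.7 to 165.1 CPM), and whether its fresh level is that of stroma was not tested. Aldh3a1, an aldehyde dehydrogenase, had 36.9, 34.9 and 31.8 CPM in rMSC, 32.9, 16 and 32.6 CPM in Scf-GFP(+) and 0.304, 0.382 and 0.324 CPM in control stroma. Cdo1, cysteine dioxygenase, had 149, 143 and 140.1 CPM in rMSC, 75.6, 129 and 122 CPM in Scf-GFP(+) and 4.09, 5.05 and 4.39 CPM in control. Every rMSC library lay above every Scf-GFP(+) library for Cdo1, though it was not called (95% interval -0.07 to 0.87). Dock8, a guanine nucleotide exchange factor best known in leukocytes, had 78, 71 and 63.8 CPM in rMSC, 61.4, 87.6 and 77 CPM in Scf-GFP(+) and 1.24, 1.09 and 0.817 CPM in control.

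A second set, chosen in the same way, held 12 genes above the fresh level in rMSC and at least 4-fold higher in Scf-GFP(+) than in control stroma. They were Nkd2, Comp, Slc38a1, Pcsk6, Lmo7, Slc22a23, Arhgdib, Lmcd1, Nhsl2, Scara3, Jup and Vit. Pcsk6, a proprotein convertase, had 804, 808 and 794 CPM in rMSC, 97.8, 248 and 211 CPM in Scf-GFP(+) and 8.04, 7.75 and 6.77 CPM in control. Nkd2, an antagonist of Wnt signalling, had 219, 221 and 230.4 CPM in rMSC, 32.4, 27.3 and 52.8 CPM in Scf-GFP(+) and 5.24, 4.29 and 4.67 CPM in control. Vit (vitrin), a matrix protein, had 105, 105 and 105 CPM in rMSC, 74.5, 49 and 78 CPM in Scf-GFP(+) and 1.56, 0.655 and 1.08 CPM in control stroma.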
